A study of Mus musculus with 8 samples.

Results

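Cassette exons longer than 60 bases were examined in mouse crypt organoids with and without overexpression of MG53. A cassette exon is an internal exon that is present in some transcripts of a gene and skipped in others. The deposited tables list the transcripts that carry an exon and the transcripts that skip it as separate events, and a pair of such events with the same outer coordinates and strand defined 1 exon. An exon was kept if both events were listed in all 8 samples and if their FPKM (a transcript level scaled to transcript length and to the number of mapped fragments) summed to at least 2 in every sample. Of 9766 paired exons of this length seen in any sample, 2339 had both events in all 8 samples and 1794 in 1463 genes were kept. They made up most of the 2197 exons of any length that met the same rule. Of the 1794 exons, 869 had a length divisible by 3 and are called frame-keeping, and the remaining 925 are called other exons.

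The organoids were grown in Matrigel from isolated small intestinal crypts of MG53-TG mice, which overexpress MG53 globally, and of wild type (WT) littermates. The labels assign 4 samples to WT and 4 to MG53-TG and give neither age nor strain. The study's text on the organoid transcriptome also uses the names MG53;Lgr5 and Lgr5, so whether both groups carried the Lgr5-EGFP-IRES-CreERT2 allele cannot be told from the labels. Nothing in the labels says that the 4 samples of a group came from separate mice, so the p-values measure the spread between these samples, which may be technical. Trim72, which encodes MG53, had a transcription end event in each MG53-TG sample, at 16.4, 27.4, 31.9 and 36.5 FPKM, and none was listed in WT. The files used give FPKM without read counts, and depth is therefore unknown. All 7 epithelial markers were listed in at least 1 sample, and all but Krt8, which was listed in 3 of 8, in every sample. Their summed FPKM was 1381 to 1574 in WT and 1101 to 1601 in MG53-TG. Of the mesenchymal markers 4 of 10 were listed, with a sum of at most 3.24 FPKM, of the immune markers 2 of 8 with at most 0.296 FPKM, and of the endothelial markers none of 3.

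The spliceosome removes introns and joins the exons on either side, and a cassette exon is kept or left out depending on the strength of its splice sites and on RNA-binding proteins of the SR and hnRNP families. If the length of a coding exon is divisible by 3, the codons downstream are read the same way with and without it, and the protein gains or loses a segment. If it is not, skipping shifts the reading frame and usually brings a stop codon early in the transcript. Nonsense-mediated decay (NMD), a surveillance pathway, degrades many transcripts whose stop codon lies well upstream of the last exon junction. A poison exon is the reverse case, in which the included exon carries or causes the early stop.

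The sequences given first are those of 6 of the 7 exons whose inclusion differed between the groups by the test, with the upstream Khk exon, which did not pass it, for comparison. Exons of Hnrnph3 and Clk1 follow, which did not pass it either and show the change of frame in RNA-binding proteins and their kinases. They were read 5′ to 3′ from the GENCODE M21 transcripts, and positions refer to GRCm38 (mm10). The exon is in capitals and up to 15 bases of each neighbouring exon are in lower case. The first pair are the adjacent exons of Khk at chr5:30926688-30926822 and chr5:30927022-30927156 (plus strand), which have the same length and the same neighbours. Of 135 aligned positions 73, or 54.1%, held the same base.
Khk upstream exon: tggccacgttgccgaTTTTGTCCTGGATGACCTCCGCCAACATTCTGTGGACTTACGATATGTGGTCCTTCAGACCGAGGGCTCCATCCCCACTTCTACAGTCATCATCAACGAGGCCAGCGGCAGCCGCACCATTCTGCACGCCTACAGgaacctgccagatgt
Khk downstream exon: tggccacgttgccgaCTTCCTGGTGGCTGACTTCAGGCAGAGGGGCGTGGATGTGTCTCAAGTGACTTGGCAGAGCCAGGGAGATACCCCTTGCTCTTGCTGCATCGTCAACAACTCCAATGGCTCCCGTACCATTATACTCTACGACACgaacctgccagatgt

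The frame-keeping exon of Aldoa (chr7:126797974-126798126, minus strand) holds a start codon, and the stretch shown begins at that codon. It was followed by the exons of Atp13a3 (chr16:30321806-30321895, minus strand) and Eapp (chr12:54678510-54678623, minus strand), which lie within the coding region.
Aldoa exon, coding part: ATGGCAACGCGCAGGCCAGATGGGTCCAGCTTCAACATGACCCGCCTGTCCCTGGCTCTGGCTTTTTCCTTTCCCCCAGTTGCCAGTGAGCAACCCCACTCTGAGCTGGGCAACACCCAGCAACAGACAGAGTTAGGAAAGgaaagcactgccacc
Atp13a3 exon: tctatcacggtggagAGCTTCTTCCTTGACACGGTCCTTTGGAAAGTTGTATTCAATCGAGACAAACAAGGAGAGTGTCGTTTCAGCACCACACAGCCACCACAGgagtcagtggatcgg
Eapp exon: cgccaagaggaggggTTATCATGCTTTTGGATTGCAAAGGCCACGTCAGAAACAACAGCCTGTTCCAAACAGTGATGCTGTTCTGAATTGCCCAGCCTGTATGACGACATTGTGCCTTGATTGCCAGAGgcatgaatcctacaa

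For the other exons, whose length is not divisible by 3, the skipped form follows the exon. In the skipped form the first 15 bases are the end of the upstream exon, and the capitals mark the first stop codon in the annotated frame. These are the coding exons of Ntan1 (chr16:13826883-13826985, plus strand), Malsu1 (chr6:49075086-49075264, plus strand), Hnrnph3 (chr10:63018760-63018898, minus strand) and Clk1 (chr1:58420121-58420211, minus strand).
Ntan1 exon: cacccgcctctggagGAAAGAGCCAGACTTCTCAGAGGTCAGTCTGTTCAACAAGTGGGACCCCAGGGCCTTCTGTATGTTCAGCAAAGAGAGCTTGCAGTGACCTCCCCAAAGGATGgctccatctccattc
Ntan1 skipped: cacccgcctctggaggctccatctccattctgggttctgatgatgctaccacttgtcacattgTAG
Malsu1 exon: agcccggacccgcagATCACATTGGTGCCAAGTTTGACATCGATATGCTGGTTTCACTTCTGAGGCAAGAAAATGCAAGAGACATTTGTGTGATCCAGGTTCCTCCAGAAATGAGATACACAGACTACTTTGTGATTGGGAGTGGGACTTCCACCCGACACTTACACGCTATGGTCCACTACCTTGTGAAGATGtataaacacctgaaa
Malsu1 skipped: agcccggacccgcagtaTAA
Hnrnph3 exon: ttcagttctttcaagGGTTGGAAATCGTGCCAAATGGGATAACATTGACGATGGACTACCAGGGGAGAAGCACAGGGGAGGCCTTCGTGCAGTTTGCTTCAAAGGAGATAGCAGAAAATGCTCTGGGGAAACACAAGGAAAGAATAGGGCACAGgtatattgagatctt
Hnrnph3 skipped: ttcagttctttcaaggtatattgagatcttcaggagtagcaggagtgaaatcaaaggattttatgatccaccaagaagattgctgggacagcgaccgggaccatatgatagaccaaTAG
Clk1 exon: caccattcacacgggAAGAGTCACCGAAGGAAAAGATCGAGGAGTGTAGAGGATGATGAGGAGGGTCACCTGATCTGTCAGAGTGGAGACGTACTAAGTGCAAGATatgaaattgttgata
Clk1 skipped: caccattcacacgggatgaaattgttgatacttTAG

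Inclusion was the share of the summed FPKM that belonged to transcripts with the exon. Averaged over the 8 samples, 600 of the 1794 exons were included at over 95%, 232 at under 5% and 962 between these limits. The rule required both forms to be listed in every sample, so exons included or skipped completely had already been left out. The exons were chosen by the summed FPKM of both forms and by both being listed, and by no difference between the groups. Just below the minimum of 2 FPKM were exons of Pwwp2a, whose lowest sum was 1.98, and Rnf32. Just above it were those of Cdc42bpa (lowest sum 2.01) and Relch (2.01). Of the 1794 middle exons 1785 were annotated, and for 1767 both the included and the skipped form were annotated. The median length was 114 bases for frame-keeping and 113 bases for other exons.

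Annotated place and reading frame divided the exons by how often they were included. Among exons that lie wholly in coding sequence, 302 of 498 other exons (60.6%) were included at over 95%, against 244 of 667 frame-keeping exons (36.6%). Only 9 coding other exons (1.81%) and 30 coding frame-keeping exons (4.50%) were included at under 5%. Exons annotated only in NMD transcripts were the reverse, as 82 of 175 were included at under 5% and 2 at over 95%. In the 5′ untranslated region (UTR), 53 of 213 exons were at under 5% and 18 at over 95%. The remaining exons were 146 that held coding and untranslated sequence, 84 in non-coding transcripts, 2 in the 3′ UTR and 9 without an annotated exon.

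**Figure D1:**
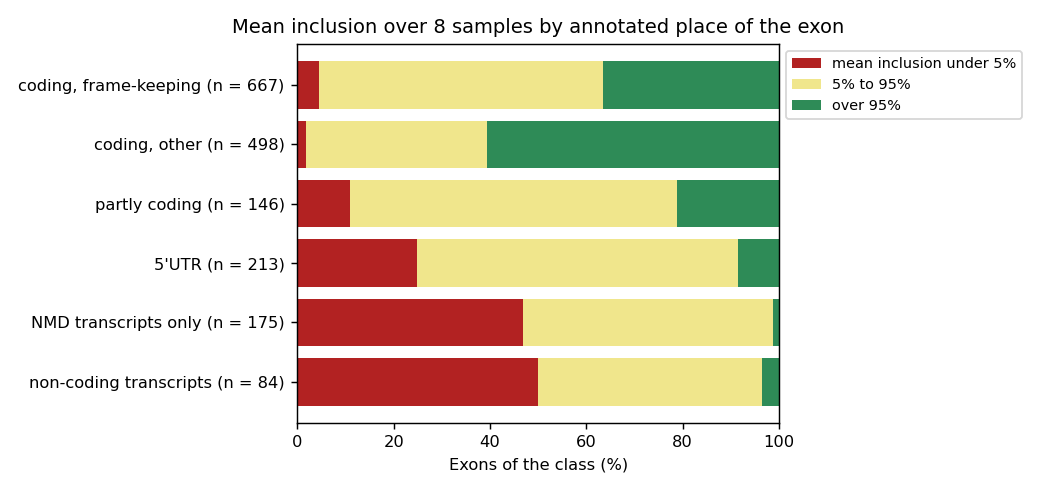
Share of exons (x axis, percent of the class) with a mean inclusion over the 8 samples of under 5% (red), 5% to 95% (yellow) or over 95% (green), by annotated place (y axis). Coding other exons have the widest green bar, at 60.6% of 498 exons, and exons of NMD transcripts have a green bar of 1.14% of 175.

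Skipping was followed through the annotated coding sequence. For 620 of 622 coding frame-keeping exons with a complete coding region (99.7%), the transcript without the exon ended at the same stop codon. For 365 of 483 coding other exons (75.6%), it met a stop codon more than 50 bases before the last exon junction, the usual position for NMD, and for 117 it ended at another stop codon closer to the end. Of 160 exons in NMD transcripts whose stop could be placed, 130 (81.3%) held the annotated stop codon themselves. This was so for 46 of 50 frame-keeping and 84 of 110 other exons. These counts describe the annotation and not the samples. In the annotation, a length divisible by 3 left the reading frame open in coding exons. It did not in most of the exons that only NMD transcripts carry.

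The fit of MG53-TG against WT used limma on the arcsine of the square root of inclusion and covered the 1208 exons of any length with a mean inclusion of 5% to 95%, with Benjamini-Hochberg adjustment over all of them. Of these, 11 passed an adjusted p of 0.05, which is 0.911% of the exons tested. Among the 962 exons longer than 60 bases 7 passed, of which 3 rose (Khk, Arhgap12 and Atp13a3) and 4 fell (Aldoa, Ntan1, Eapp and Malsu1). Over all exons tested 0.579% were called higher and 0.331% lower. The inclusion filter used the mean of both groups, so Khk, Atp13a3, Eapp, Ntan1 and Malsu1, whose WT means lay under 5% or over 95%, entered the fit through their MG53-TG values. With no such filter Atp13a3 (limma adjusted p = 0.0668), Arhgap12 (0.0668) and Malsu1 (0.0533) were not called. The frame-keeping exons contributed 5 of 518 and the other exons 2 of 444. All 7 had groups that did not overlap. With 4 samples against 4 this alone sets the two-sided exact permutation test to its smallest p (p = 0.0286), which therefore adds no further support. At an unadjusted limma p under 0.05 there were 101 exons (44 higher, 57 lower), or 10.5%, against 11.3% of all exons tested. The groups did not overlap in 79 exons (37 higher, 42 lower), or 8.21%, against 8.86% of all exons tested. Both shares were close to the background.

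**Figure D2:**
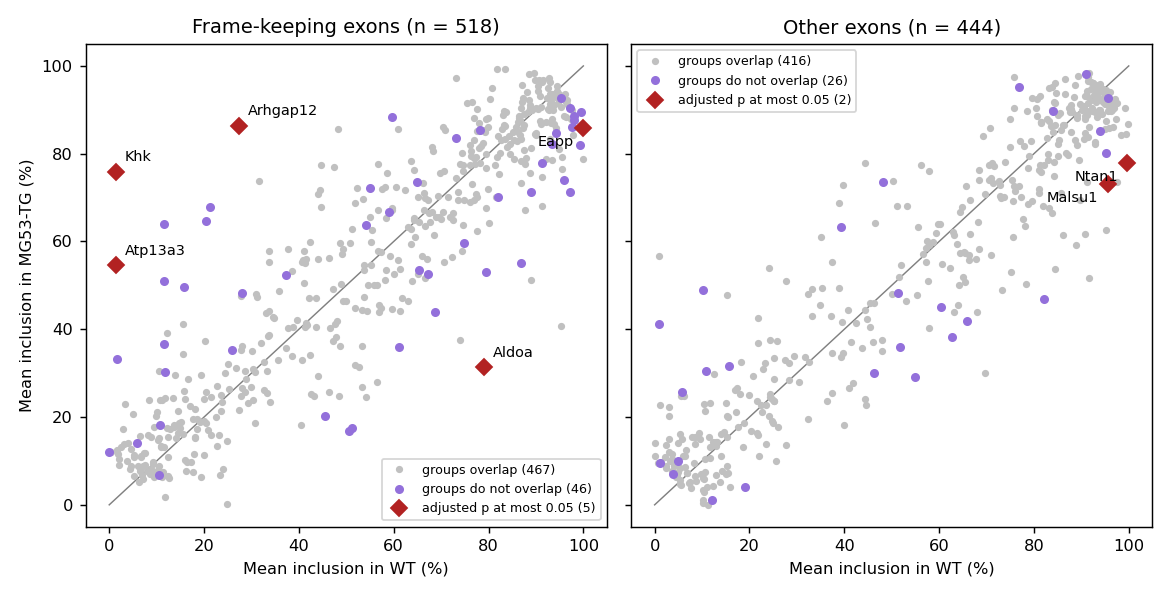
Mean inclusion in WT (x axis, percent, 4 samples) against mean inclusion in MG53-TG (y axis, percent, 4 samples) for 518 frame-keeping exons (left) and 444 other exons (right). Grey points are exons whose groups overlap, purple points those whose groups do not, and red diamonds the exons called by limma; most points lie near the diagonal, with a median absolute difference of 6.44 points for frame-keeping and 5.85 points for other exons.

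Most exons were close to the diagonal in the plot of mean inclusion in WT against MG53-TG. Over the 962 exons, the median absolute difference was 6.10 points of inclusion, where the median SD was 7.70 points within WT and 9.53 points within MG53-TG. A difference above 20 points was seen in 92 exons (9.56%), beside 11.2% of all exons tested. The direction was even, with 50.9% of exons higher in MG53-TG and a median difference of 0.24 points. Of the exons of up to 60 bases, 65.4% of 246 were higher in MG53-TG, with a median difference of 3.33 points. That difference between long and short exons was not tested, since exons of the same samples are not replicates. By length, at an unadjusted p under 0.05 (11.3% of all exons tested) there were 18 higher and 15 lower among 287 exons of up to 90 bases, 8 and 13 among 255 of up to 120 bases, 12 and 13 among 264 of up to 180 bases, and 6 and 16 among 156 longer exons.

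Within coding sequence, frame-keeping exons were past an unadjusted p of 0.05 in 52 of 393 (13.2%) and other exons in 12 of 187 (6.42%), beside 11.3% of all exons tested. Of the 12 other exons 10 were lower in MG53-TG, that is, the skipped form took a larger share, and 2 were higher. Over all exons tested 71 were higher and 66 lower at this p, and the difference between these splits was not tested. Of the 52 frame-keeping exons 31 were lower and 21 higher. Median inclusion of the tested coding exons was 65.9% in WT and 67.1% in MG53-TG for frame-keeping and 85.7% in WT and 85.1% in MG53-TG for other exons. Exons found only in NMD transcripts were higher in MG53-TG in 70.3% of 91 cases, beside 53.9% of all exons tested, a difference that was not tested, with a median inclusion of 13.7% in WT and 16.4% in MG53-TG. None of them was called by limma, and 6 had an unadjusted p under 0.05. In the 5′ UTR none of 142 exons was called by limma, and 17 had an unadjusted p under 0.05.

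The largest rise was in Khk, which encodes ketohexokinase, the enzyme that phosphorylates fructose as the first step of its breakdown. The gene has a pair of adjacent exons that are normally used as alternatives and give the enzyme forms KHK-A and KHK-C, which differ in their affinity for fructose. Inclusion of the downstream exon was 5.58%, 0.00367%, 0.00674% and 0.00672% in WT samples 1 to 4 and 59.9%, 64.4%, 93.2% and 86.3% in MG53-TG samples 1 to 4. Every MG53-TG sample was far above every WT sample, and WT sample 1 was the only WT sample above 1%. The difference was 74.5 ± 8.28 points (SE, n = 4 per group, limma adjusted p = 0.00860). The transcripts with the downstream exon were at 0.284 ± 0.565 FPKM (SD, n = 4) in WT and 120 ± 60.4 FPKM in MG53-TG.

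The upstream Khk exon did not pass the test. Its transcripts were at 16.3 ± 5.84 FPKM (SD, n = 4) in WT and 22.5 ± 26.1 FPKM in MG53-TG. Its inclusion was 51.9%, 64.6%, 49.4% and 44.9% in WT and 51.7%, 0.302%, 1.02% and 73.0% in MG53-TG samples 1 to 4, so that MG53-TG samples 1 and 4 used it and samples 2 and 3 almost did not (limma adjusted p = 0.637). Of the transcripts with either exon, the downstream exon took 1.30 ± 2.60% (SD, n = 4) in WT and 82.0 ± 21.2% in MG53-TG. Of all 3 forms it took 0.694 ± 1.38% in WT and 65.6 ± 21.1% in MG53-TG. Both of these shares were chosen after the values had been seen. Both exons are measured against the same skipped form, which was listed at 7.97 to 21.5 FPKM in WT and 14.7 to 60.5 FPKM in MG53-TG. The summed level of the downstream pair rose by 3.31 on the log2(FPKM + 1) scale (limma adjusted p = 0.000716). How the deposited estimates divided reads between these forms of equal length was not tested.

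**Figure D3:**
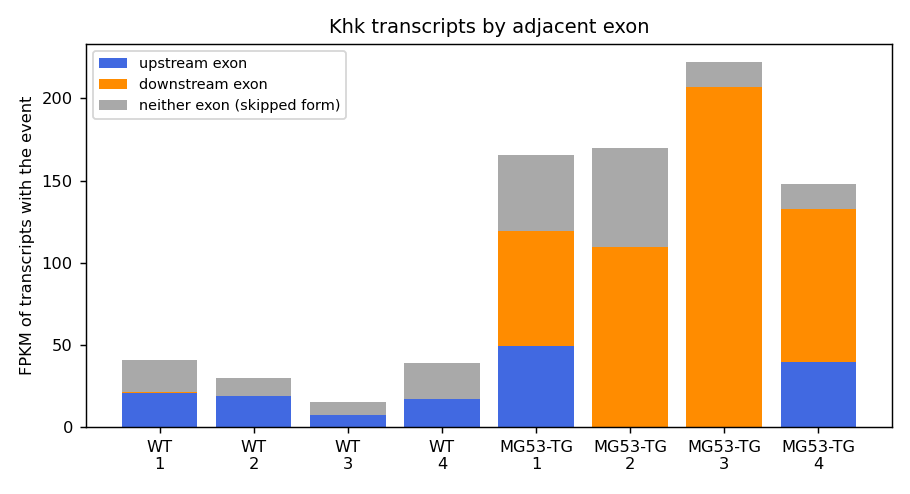
FPKM of Khk transcripts (y axis) in each of the 8 samples (x axis), stacked as transcripts with the upstream 135-base exon (blue), the downstream 135-base exon (orange) or neither (grey). The orange part averages 0.284 FPKM in WT and 120 FPKM in MG53-TG, while the blue part is nearly absent in MG53-TG samples 2 and 3.

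The largest fall was in Aldoa, which encodes aldolase A, a glycolytic enzyme. The 153-base exon was included at 78.5%, 76.6%, 83.4% and 77.7% in WT and at 35.4%, 24.4%, 34.3% and 31.4% in MG53-TG. The values within each group lay close together and the groups were far apart. Inclusion fell by 47.7 points (SE 2.89, n = 4 per group, limma adjusted p = 0.00860). Transcripts with the exon were at 802 FPKM in WT and 217 FPKM in MG53-TG on average, while those without it were at 210 and 466 FPKM, the most abundant pair among the 7 called exons. The start codon in this exon lengthens the annotated coding region from 1092 to 1254 bases, or by 54 codons. The annotated transcripts with and without the exon leave the same first exon at the same splice site and differ in their annotated start within it, and transcripts from other first exons of the gene are not part of this pair.

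Khk and Aldoa were called in all 8 fits that left out 1 sample, with adjusted p of at most 0.0476. The other called exons were not. Of those 8 fits, Ntan1 was called in 4, Atp13a3 in 3, Arhgap12 in 2, and Eapp and Malsu1 in 1 each. Malsu1 was also not called on the log2 ratio of the events (limma adjusted p = 0.0530) or with missing events as 0 (0.0790), nor was Eapp in the latter (0.0767). The number of exons called was 3 without WT sample 1, 2, 3 or 4 or MG53-TG sample 4, and 11 without MG53-TG sample 2.

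Atp13a3 encodes a P-type ATPase of the family that transports polyamines. Its 90-base exon was included at 3.13%, 1.21%, 0.357% and 0.963% in WT and at 35.0%, 38.7%, 85.5% and 59.4% in MG53-TG samples 1 to 4. It was nearly absent from every WT sample. Its level varied widely among the MG53-TG samples and was lower in samples 1 and 2 than in samples 3 and 4. The difference was 53.2 ± 11.6 points (SE, n = 4 per group, limma adjusted p = 0.0278), and the summed level of the pair did not pass the test (adjusted p = 0.325). Transcripts with the exon were at 0.273 FPKM in WT and 15.2 FPKM in MG53-TG on average.

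Arhgap12, on chromosome 18, had a pair of cassette exons that keep the frame. The 75-base exon was included at 28.9%, 43.7%, 29.1% and 7.67% in WT and at 84.1%, 76.3%, 91.1% and 94.2% in MG53-TG. WT sample 4 was lowest and MG53-TG sample 4 highest. The difference was 59.0 ± 8.43 points (SE, n = 4 per group, limma adjusted p = 0.0278). The 141-base exon of the same gene was included at 20.5%, 32.0%, 11.4% and 17.8% in WT and at 53.7%, 59.5%, 61.1% and 84.5% in MG53-TG and did not pass the test (adjusted p = 0.0618). These exons share transcripts, so they are not independent measurements.

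The exons of Eapp, Ntan1 and Malsu1 were included in nearly all transcripts in WT and in fewer in MG53-TG. Eapp encodes a phosphoprotein that binds E2F transcription factors. Its 114-base exon was at 99.9%, 99.9%, 99.9% and 100.0% in WT and at 82.1%, 92.7%, 80.6% and 88.5% in MG53-TG, a fall by 14.0 points (SE 2.82, n = 4 per group, limma adjusted p = 0.0262). Its transcripts were also less abundant, as the summed level fell by 1.16 on the log2(FPKM + 1) scale (limma adjusted p = 0.00138). The skipped form rose from an average of 0.00775 to 0.728 FPKM, which is low in both groups.

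Ntan1 encodes an amidase that acts on N-terminal asparagine in a protein degradation pathway. Its 103-base exon was at 99.5%, 99.8%, 99.5% and 99.6% in WT and at 79.2%, 82.1%, 84.3% and 65.8% in MG53-TG, and inclusion fell by 21.8 points (SE 4.16, n = 4 per group, limma adjusted p = 0.0209). Without the exon the annotated frame ends at a TAG that begins 48 bases past the junction and lies 518 bases before the last junction. Malsu1 encodes an assembly factor of the large mitochondrial ribosomal subunit. Its 179-base exon was at 92.4%, 96.0%, 98.0% and 95.8% in WT and at 72.0%, 81.1%, 69.2% and 70.0% in MG53-TG, and inclusion fell by 22.5 points (SE 2.97, n = 4 per group, limma adjusted p = 0.0337). Skipping creates a TAA 2 bases past the junction, and the annotated skipped transcripts are NMD or processed transcripts. The annotated skipped form of Ntan1 is a processed transcript. In both genes the MG53-TG samples had the larger share of the skipped form. Its early stop codon was derived by leaving the exon out of the annotated coding sequence.

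**Figure D4:**
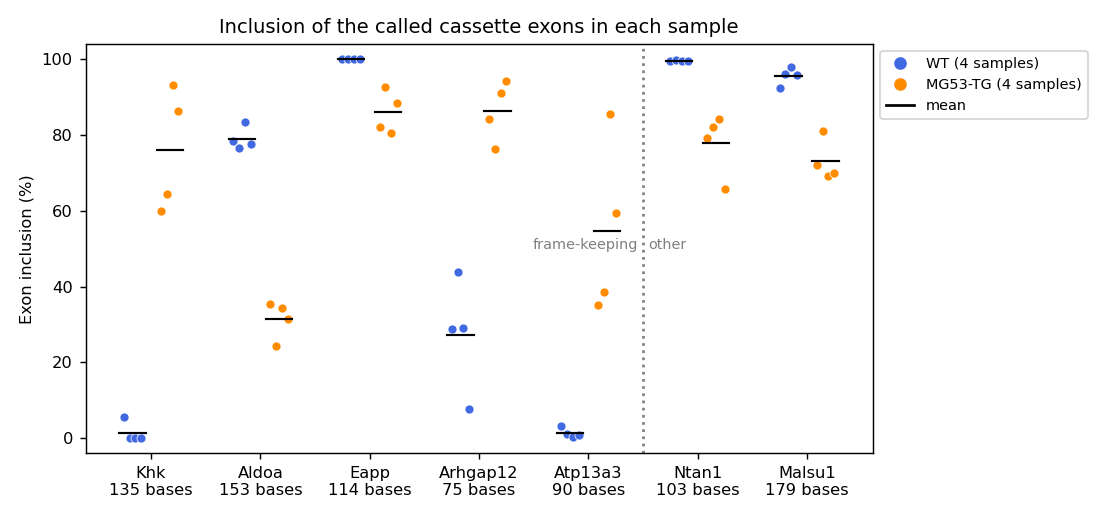
Inclusion (y axis, percent) of the 7 called exons (x axis, with exon length) in each WT (blue) and MG53-TG (orange) sample, with the group mean as a black line; frame-keeping exons are left of the dotted line and other exons right of it. The groups do not overlap in any of the 7, Khk has the largest difference of means (1.40% and 75.9%) and Eapp the smallest (99.9% and 86.0%).

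Several frame-keeping exons outside the called set had groups that did not overlap and differences above 30 points. Map4k3, a kinase of the stress-activated MAP kinase pathway, had a 63-base exon at 15.8 ± 5.03% (SD, n = 4) in WT and 49.6 ± 11.7% in MG53-TG (limma adjusted p = 0.0659). The 2061-base exon of Prrc2b, an RNA-binding protein, was at 50.6 ± 8.80% in WT and 16.8 ± 9.38% in MG53-TG (limma adjusted p = 0.0858, n = 4 per group), and shares its skipped form with another exon. Pml, the organizer of PML nuclear bodies, had a 138-base exon at 21.2 ± 16.8% in WT and 67.9 ± 5.19% in MG53-TG (limma adjusted p = 0.121, n = 4 per group). Aftph, a clathrin-associated trafficking protein, had an 81-base exon at 12.4%, 14.2%, 14.1% and 5.84% in WT and 18.4%, 49.9%, 53.4% and 82.4% in MG53-TG. Tmtc3, an enzyme of the endoplasmic reticulum, had a 75-base 5′ UTR exon at 8.15% to 16.4% in WT and at 99.7%, 36.6%, 20.1% and 99.9% in MG53-TG samples 1 to 4, a wide spread within that group. The Tmtc3 exon also shares its skipped form with another exon.

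Among the other exons with the largest differences and no overlap, 4 of the 10 named lay in 5′ UTRs, where the reading frame does not apply. Of the 444 other exons tested, 100 lay in 5′ UTRs. The groups did not overlap in 8 of these 100 (8%), close to the 8.86% of all exons tested. The 127-base exon of Nipa2, a magnesium transporter, was at 3.37%, 0.679%, 32.3% and 4.30% in WT and at 43.1%, 48.5%, 56.8% and 47.4% in MG53-TG (limma adjusted p = 0.0955). Traf6, an adaptor and ubiquitin ligase of innate immune signalling, had a 203-base exon at 61.1%, 43.1%, 51.7% and 64.1% in WT and at 36.1%, 29.6%, 24.0% and 26.8% in MG53-TG (limma adjusted p = 0.165). Rnf14, a ubiquitin ligase, had a 76-base exon at 0.540% to 1.48% in WT and at 3.22%, 54.6%, 52.8% and 54.7% in MG53-TG samples 1 to 4. MG53-TG sample 1 was close to WT there and the other samples were far above it. Gal3st1, which adds sulfate to galactolipids, had a 218-base exon at 65.9 ± 7.75% in WT and 42.0 ± 8.34% in MG53-TG (limma adjusted p = 0.215, n = 4 per group). The exons of Rnf14 and Gal3st1 each share their skipped form with at least 1 further exon. Of 2 partly coding exons named by the same rule, that of Pitpnb, a phosphatidylinositol transfer protein, was at 62.6% in WT and 38.3% in MG53-TG and that of Golga4, a Golgi tether, was at 48.2% in WT and 73.5% in MG53-TG.

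Genes of splicing factors and RNA-binding proteins held 40 tested exons in 33 genes, of which 15 kept the frame. None of the 40 was called by limma, 6 had an unadjusted p under 0.05 (3 higher and 3 lower), beside 11.3% of all exons tested, and 5 did not overlap, beside 8.86%. Their median difference was 1.74 points, beside 0.63 points over all exons tested. Hnrnph3, an RNA-binding protein of the hnRNP H family, had the lowest p. Its 139-base exon, an other exon, was at 82.3%, 81.4%, 76.2% and 88.7% in WT and at 48.9%, 52.2%, 54.5% and 31.5% in MG53-TG, with a limma adjusted p of 0.0556. The groups did not overlap, while the summed level of the pair did not pass the test (adjusted p = 0.373). Without the exon the frame shown above ends 609 bases before the last junction, although the annotated transcripts that skip it include coding as well as NMD transcripts.

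Hnrnpdl, an hnRNP D-like protein, had a 105-base exon that only NMD and retained-intron transcripts carry. It was at 68.8 ± 5.39% in WT and 44.0 ± 5.61% in MG53-TG (limma adjusted p = 0.128, n = 4 per group), and the annotated transcripts without it are coding. Clk1, a kinase that phosphorylates SR proteins, had a 91-base exon at 23.8%, 40.1%, 50.7% and 42.5% in WT and at 68.8%, 65.4%, 62.2% and 56.7% in MG53-TG (limma adjusted p = 0.235). For Clk1 the frame runs on with the exon and stops 18 bases past the junction without it. Its transcripts with the exon were at 6.97 FPKM in WT and 17.7 FPKM in MG53-TG, and those without it at 10.6 and 10.2 FPKM. Hnrnpa1, whose protein is an abundant splicing repressor, had a 156-base exon at 97.1 ± 1.12% in WT and 90.5 ± 2.71% in MG53-TG (limma adjusted p = 0.294, n = 4 per group). None of these 4 exons passed the test.

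Genes of the epithelial splicing programme, adhesion, polarity and the cytoskeleton held 43 tested exons in 31 genes, of which 38 kept the frame. None was called by limma, 8 had an unadjusted p under 0.05 (3 higher and 5 lower), beside 11.3% of all exons tested, and 5 did not overlap, beside 8.86%. Their median absolute difference was 10.2 points, beside 6.39 points over all exons tested. Mark2, a polarity kinase, had a 162-base exon at 57.8%, 57.3%, 77.1% and 51.9% in WT and at 33.3%, 47.7%, 33.5% and 29.1% in MG53-TG (limma adjusted p = 0.238). The groups did not overlap. The 87-base exon of Ktn1, a kinesin-binding membrane protein, was at 24.0 ± 7.33% in WT and 8.23 ± 7.15% in MG53-TG (limma adjusted p = 0.294, n = 4 per group). Scrib, a polarity scaffold, had a 63-base exon at 44.1 ± 17.6% in WT and 70.9 ± 4.65% in MG53-TG, and Cask, a membrane-associated scaffold, a 69-base exon at 56.4 ± 18.5% in WT and 28.1 ± 15.2% in MG53-TG. For Ktn1, Scrib and Cask the groups overlapped. The Cask exon shares its skipped form with another exon.

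**Figure D5:**
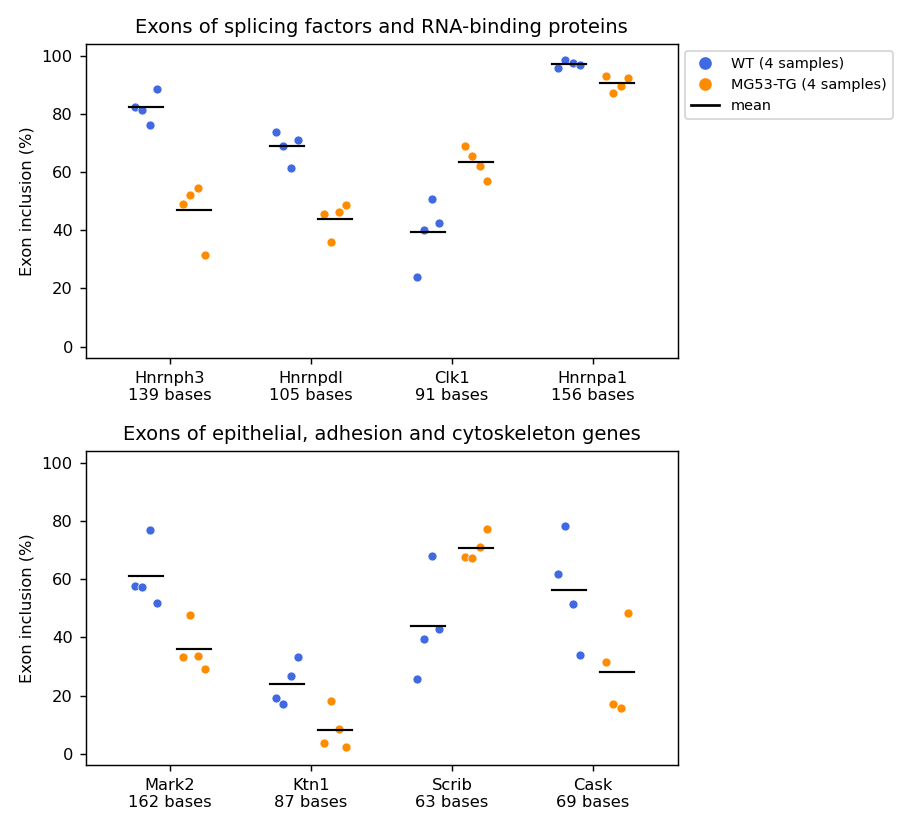
Inclusion (y axis, percent) of 4 exons of splicing factor genes (top) and 4 exons of epithelial, adhesion and cytoskeleton genes (bottom) in each WT (blue) and MG53-TG (orange) sample, with group means as black lines and exon lengths below the gene names. The top groups do not overlap (Hnrnph3 means 82.2% and 46.8%), while those of Ktn1, Scrib and Cask do.

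Genes of vesicle transport held 15 tested exons, of which none was called by limma and 2 had an unadjusted p under 0.05 (11.3% of all exons tested). Those were the 78-base exon of Sec31a, a COPII coat subunit, and the exon of Golga4 given above. The Sec31a exon was at 75.1%, 99.4%, 99.2% and 99.5% in WT and at 82.9%, 73.2%, 85.7% and 72.4% in MG53-TG (limma adjusted p = 0.356). WT sample 1 lay among the MG53-TG samples. The next in order were Clint1, an adaptor of clathrin-coated vesicles, at 77.0 ± 8.61% in WT and 88.2 ± 7.97% in MG53-TG, and Eps15, an endocytic adaptor, whose samples ranged from 38.7% to 99.8% in WT and from 13.1% to 97.9% in MG53-TG. The Eps15 exon shares its skipped form with another exon.

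Genes of lipid metabolism and PPAR signaling, the pathway the study followed in these organoids, held 13 tested exons. None was called by limma (0.911% of all exons tested) or had an unadjusted p under 0.05 (11.3%), and none had groups that did not overlap (8.86%). With 13 exons these counts of 0 are little different from the background. The lowest p values were those of Acsl3, an acyl-CoA synthetase (15.4% in WT and 7.19% in MG53-TG), Osbpl3, an oxysterol-binding protein relative (89.8% and 96.8%), Elovl1, a fatty acid elongase (98.4% and 84.3%), and Ncor1, a nuclear receptor corepressor (41.1% and 50.5%). In all 4 the groups overlapped.

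Genes of chromatin, transcription and signalling held 37 tested exons, with none called by limma, 2 at an unadjusted p under 0.05 (11.3% of all exons tested) and 4 that did not overlap (8.86% of all exons tested). Numb, an inhibitor of Notch signalling, had a 147-base frame-keeping exon at 84.4%, 86.9%, 100.0% and 84.7% in WT and at 55.7%, 77.1%, 75.7% and 76.6% in MG53-TG (limma adjusted p = 0.372). The groups did not overlap, with WT sample 3 highest and MG53-TG sample 1 lowest. Mdm4, an inhibitor of p53, had a 68-base other exon whose skipping shifts the frame, at 99.9%, 99.9%, 67.1% and 99.8% in WT and at 40.4%, 99.2%, 30.5% and 36.2% in MG53-TG (limma adjusted p = 0.393). WT sample 3 and MG53-TG sample 2 each lay within the range of the other group. The Mdm4 exon shares its skipped form with another exon. Ppp1r12a, the targeting subunit of myosin phosphatase, was at 65.4 ± 1.66% in WT and 53.5 ± 8.10% in MG53-TG, and Brd8, a bromodomain protein, at 80.1 ± 7.51% and 64.2 ± 12.7%.

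The summed FPKM of both forms was compared on the log2(FPKM + 1) scale. Of all 2197 pairs 32.6% were called by limma, 9.97% higher and 22.6% lower in MG53-TG. Among the 1794 exons longer than 60 bases 174 were higher and 406 lower, with a median change of -0.19. After median-of-ratios scaling the median change was -0.01, with 257 higher and 250 lower, so that the excess of lower levels depended on the scaling. With that scaling 28.3% of these exons were called, beside 28.1% of all pairs (318 higher and 299 lower). Without that scaling, 43 (42.6%) of the 101 exons with an unadjusted p under 0.05 for inclusion also had a called level, 12 higher and 31 lower. The levels of single exons were likewise taken without it. Besides Khk and Eapp, the level was called for Aldoa (-0.583, limma adjusted p = 0.0181), Ntan1 (-0.404, 0.0274) and the 75-base Arhgap12 exon (-0.447, 0.0192). It was not called for Atp13a3 or Malsu1 (limma adjusted p = 0.976). Of the splicing factor exons named, it was called for Clk1 (0.637, 0.00322) and Hnrnpa1 (-1.17, 0.0258). For Hnrnph3 and Hnrnpdl (limma adjusted p = 0.776) it was not. The rule required at least 2 FPKM in every sample, which left out exons of genes that were silent in either group.

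The cell type markers also differed between the groups. The summed FPKM of 7 enterocyte markers was 358 to 456 in WT and 6872 to 8769 in MG53-TG. That of 5 stem cell markers was 342 to 497 in WT and 32.8 to 181 in MG53-TG, and that of 4 listed Paneth markers, of which Defa17 was listed in WT sample 1 alone, was 873 to 1071 and 195 to 330. Goblet cell markers were at 325 to 360 in WT and 106 to 249 in MG53-TG, and enteroendocrine markers at 106 to 123 and 252 to 323. None of these summed ranges overlapped. Within MG53-TG every stem cell marker was higher, and every enterocyte marker lower, in samples 1 and 2 than in samples 3 and 4. Lgr5 was at 18.6 and 20.5 against 7.90 and 9.25 FPKM, and Sis at 307 and 338 against 531 and 586 FPKM. Inclusion of the called Khk, Atp13a3, Arhgap12 and Malsu1 exons split the same way, and that of Aldoa, Ntan1 and Eapp did not. The labels do not say whether these samples share an origin, and the split was not tested. In bulk samples fewer cells of a type and less RNA per cell cannot be told apart. Single markers could differ from their list, as Zg16 of the goblet list was at 0.585 ± 0.0936 FPKM (SD, n = 4) in WT and 3.11 ± 3.05 FPKM in MG53-TG, and the stem cell marker Smoc2 in MG53-TG samples 1 and 2 (79.4 and 84.8 FPKM) lay within its WT range. The part of these markers in the differences of exon inclusion was not tested.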

How the data were processed

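RNA sequencing of 4 WT and 4 MG53-TG organoid samples was used. Per the study's methods and the labels, the authors trimmed reads with cutadapt 1.9.1, mapped them with HISAT2 2.0.1 to mm10 and deposited FPKM values obtained with HTSeq 0.6.1. The labels also name DESeq2. The tool that made the event tables is not given in the sources used here. The sum of FPKM over all transcription start events was 269094 to 284330 per sample. Read depth is unknown, so no counting interval was computed and no count test was run.

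Events with and without an exon were paired by chromosome, strand and outer coordinates, and exons were placed in genes, coding regions and transcripts of GENCODE M21. Where several of the 1794 exons shared 1 skipped event (101 exons), each was paired with it separately. That count leaves out sharing with exons that were shorter or were not kept. Inclusion of an exon with a shared skipped event leaves out the transcripts with the further exon. Among the named exons this applies to those of Khk, Prrc2b, Rnf14, Gal3st1, Tmtc3, Cask, Mdm4 and Eps15. For 102 exons the annotated gene differed from the name of the locus in the files. No genome sequence was used, so introns and splice sites were not examined.

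Inclusion was fitted with limma 3.58.1 (lmFit, eBayes with trend) in R 4.3.3 after an arcsine square root transformation, over exons of any length with a mean inclusion of 5% to 95%, and p-values were adjusted after Benjamini and Hochberg (threshold 0.05). Summed FPKM was fitted as log2(FPKM + 1), which understates the change of low values. For single exons the exact permutation test was two-sided and ran over 70 relabellings. The fits were also tested on simulated data, and no result of those tests is reported here. Other steps used Python 3.11.15, numpy 2.4.6 and pandas 2.3.3.

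The exons named were those called, the 10 frame-keeping and 10 other exons with the largest difference among exons with an unadjusted p under 0.05 and no overlap, and up to 4 exons with the lowest p in each of 5 gene lists (splicing factors and RNA-binding proteins; epithelial splicing, adhesion and cytoskeleton; vesicle transport; lipid metabolism and PPAR signaling; chromatin, transcription and signalling). The exons, the lists and the markers of mesenchyme, immune cells, endothelium, epithelium, enterocytes, stem, Paneth, goblet and enteroendocrine cells were chosen with earlier results of these data known. Alternatives covered the scale, the FPKM minimum, the inclusion filter, missing events, shared skipped events, sample weights, the variance model, the replicate number and leaving out each sample.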

Additional observations from a re-analysis of the deposited data

Results flagged for a closer look

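Of 76 groups of 4 values examined for the named exons, 10 held a sample that lay far from the other 3 by Dixon's criterion. For normally distributed values chance gives about 1 in 20 groups, or 3.8 of 76. Inclusion is bounded at both ends and the exons were chosen on the same values. The count of 10 therefore cannot be judged against that figure. In the WT group, inclusion stood apart in sample 1 for Khk (5.58%) and Sec31a (75.1%), in sample 3 for Nipa2 (32.3%), Numb (100.0%) and Mdm4 (67.1%), and in sample 4 for Eps15 (38.7%). In the MG53-TG group it stood apart in sample 1 for Rnf14 (3.22%), Numb (55.7%) and Osbpl3 (88.5%), and in sample 2 for Mdm4 (99.2%). By sample, WT sample 3 and MG53-TG sample 1 had 3 each, WT sample 1 had 2, and WT sample 4 and MG53-TG sample 2 had 1 each. The Mdm4 exon stood apart in both groups, and in each the sample lay within the range of the other group. What set these samples apart was not tested.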

How the results depend on the processing

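Depth is unknown, so the error of a single inclusion value could not be computed. Of 7 called exons longer than 60 bases, 6 to 9 were called under the other scales, filters and variance models, of which 4 to 7 were among the 7. With at least 5 FPKM in every sample 5 were called higher in place of 3, and with the log2 ratio of the events 1 other exon was called in place of 2. Exons at an unadjusted p under 0.05 numbered 176 with no filter on inclusion and 152 with missing events as 0, in place of 101, as more exons were tested. Of the splicing factor exons 1 (Hnrnph3) was called with at least 5 FPKM and 1 with no trend in the variance. The count of lower summed levels was 250 in place of 406 after median-of-ratios scaling.

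Leaving out 1 sample gave 3 to 11 called exons longer than 60 bases, with 1 to 5 higher, 1 to 6 lower, 2 to 9 frame-keeping and 0 to 3 other, and 4 to 16 of any length in place of 11. Lower summed levels ranged from 278 to 430 and higher ones from 141 to 179. In the refits of single exons, where not every exon could be refitted under every alternative, 615 values stayed on their side of the threshold, 42 lost their call and 7 gained one.

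The replicate numbers did not pair the samples, as deviations of samples with the same number correlated at 0.083, -0.0067, 0.042 and -0.031. With the replicate number as a block 0 exons were called, that is 0 higher, 0 lower, 0 frame-keeping, 0 other and 0 of any length, while 86 had an unadjusted p under 0.05, and Khk and Aldoa had a limma adjusted p of 0.0970.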
